A study of Mus musculus with 15 samples.

Results

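The genes described here are 10 genes of vitamin D metabolism and phosphate handling in mouse kidney, taken by symbol from the 17832 genes of the deposited FPKM table (a level corrected for gene length and library size). They are the vitamin D binding protein gene Gc, the vitamin D hydroxylases Cyp2r1, Cyp27b1 and Cyp24a1, the vitamin D receptor Vdr, the phosphate carriers Slc34a1, Slc34a3 and Slc20a2, and the FGF23 co-receptor Kl with its partner receptor Fgfr1. The study sequenced kidney mRNA of male C57BLKS/J mice aged 22 weeks, with 5 libraries in each of 3 groups. The first group was db/db mice given 1 mg/kg dapagliflozin in 0.5% methylcellulose, which blocks SGLT2, the carrier that reclaims glucose in the proximal tubule. The second was db/db mice given this methylcellulose vehicle alone, and the third was m/m mice, the non-diabetic controls labelled WT, given the same vehicle. The db/db mice are without a signalling leptin receptor in any tissue, so that obesity, diabetes and loss of leptin action come together in this model. Whether each library stands for its own mouse is not stated in the labels. The p-values therefore reflect the spread among these samples, and part of that spread may be technical.

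Vitamin D is hydroxylated mainly in the liver to calcifediol, which travels in plasma on the vitamin D binding protein. Proximal tubule cells take the filtered complex up through megalin and cubilin, convert calcifediol to the active hormone calcitriol with the product of Cyp27b1, and break both down with the product of Cyp24a1. Calcitriol acts through the vitamin D receptor on calcium transport in the distal nephron. Phosphate is reclaimed in the proximal tubule mostly by the sodium-coupled carriers of the Slc34 family. Parathyroid hormone and FGF23, the bone hormone that signals through Klotho and an FGF receptor, take these carriers off the membrane, and FGF23 also lowers Cyp27b1 and raises Cyp24a1.

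Depth split the libraries into a pair of sets. A low-read set, made of the 5 dapagliflozin libraries and db/db vehicle 4 and 5, had 1.60 to 2.29 M reads per library. A high-read set, made of db/db vehicle 1, 2 and 3 and the 5 m/m libraries, had 14.8 to 16.4 M. Between these sets 7859 of 12869 tested genes differed within the db/db vehicle group alone (61.1%). Comparisons were therefore kept inside a set: db/db vehicle 1 to 3 against m/m 1 to 5, and dapagliflozin 1 to 5 against db/db vehicle 4 and 5. Over genes with 20 to 99 reads, the variance between dapagliflozin 2 and 3 was 0.723 times that of sampling. This is less than independent sampling gives, and the pair had earlier been found to share reads. Dapagliflozin 1 and 2 were also below 1 there, at 0.885, but reached 1.73 over all genes with at least 20 reads, where dapagliflozin 2 and 3 were at 1.02. Other low-read pairs reached 2.50 in the first range. Dapagliflozin 2 and 3 were therefore averaged and counted as 1 sample, which leaves 4 dapagliflozin samples. Kidney identity was plain in every group: all 16 proximal tubule markers were measured, and Umod, the uromodulin gene of the thick ascending limb, stood at 553 to 834 FPKM in all 15 libraries.

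In db/db vehicle kidneys the plasma carrier gene Gc and the calcitriol-forming hydroxylase Cyp27b1 were higher than in m/m kidneys, and the FGF23 co-receptor Kl was lower. Smaller increases were called for Slc20a2 and Fgfr1 and a smaller decrease for Slc34a1, whereas Cyp24a1, Vdr and Slc34a3 did not pass the test. In total 4 of 9 tested members rose and 2 fell (limma on log2(FPKM + 1), Benjamini-Hochberg adjusted p under 0.05). This stands beside 37.8% of all 12869 tested genes that were called, 29.5% higher and 8.31% lower, so the number of members called carries little by itself. Cyp2r1 lay below the minimum mean of 0.5 FPKM and was not tested. The median difference was 0.27 over the tested members and 0.16 over all genes on the log2 scale. That general shift was 0.00 under median-of-ratios scaling, where 1544 genes rose and 2243 fell, against 3799 and 1070 as deposited. In whole tissue, a change in the number of cells that express a gene and a change in RNA per cell cannot be told apart.

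**Figure D1:**
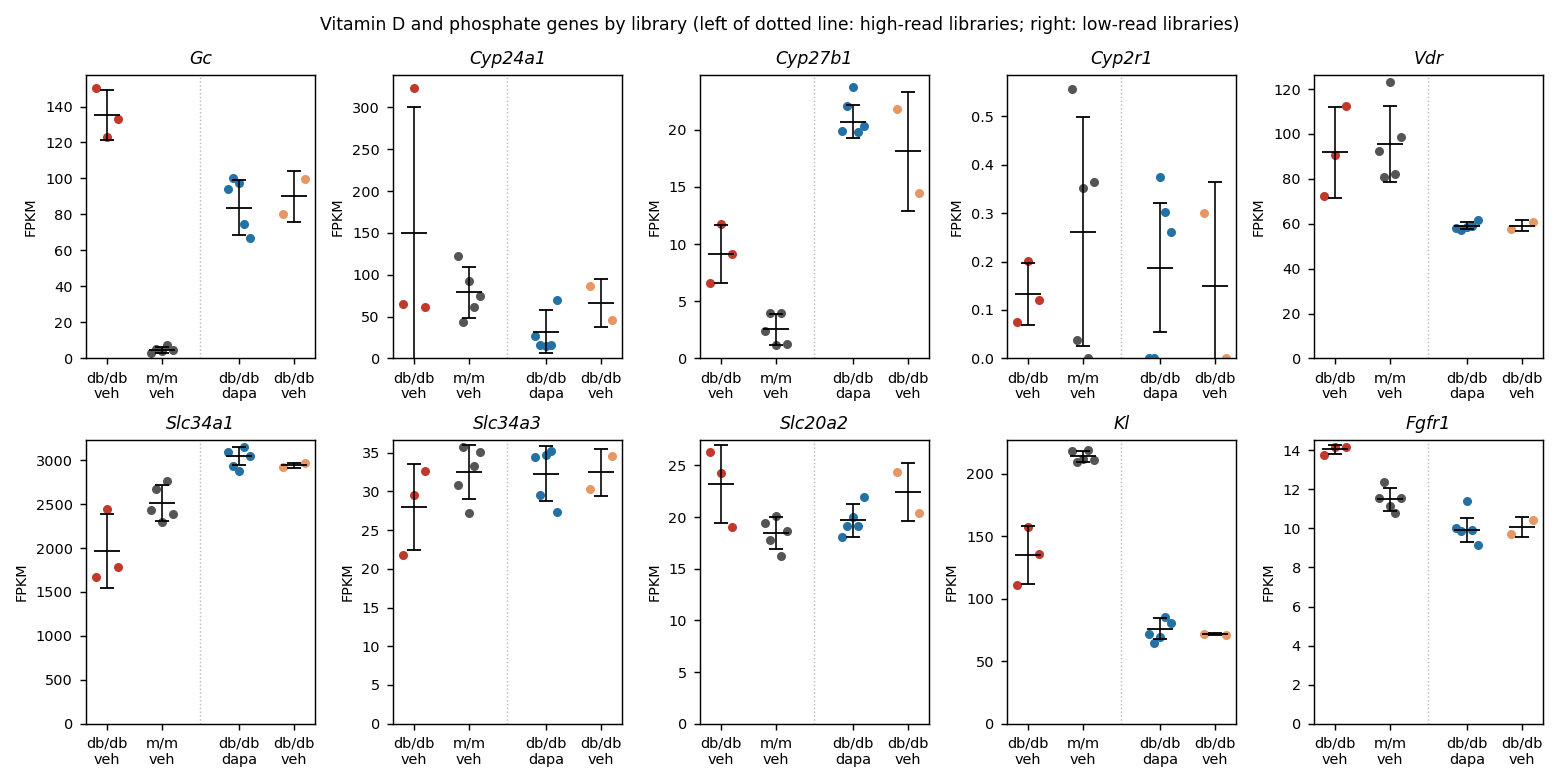
FPKM of the 10 genes in each library, with the mean and SD of each group as black bars (dapagliflozin 2 and 3 count once in the mean). The high-read db/db vehicle and m/m libraries stand left of the dotted line and the low-read dapagliflozin and db/db vehicle libraries right of it. For Gc, Cyp27b1, Kl and Fgfr1 the ranges of db/db vehicle and m/m do not overlap. How many of all genes have such separate ranges was not counted.

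Gc showed the greatest difference of the 9 tested members. Its level was 150.4, 123 and 133 FPKM in db/db vehicle 1, 2 and 3, against 2.93, 5.24, 3.89, 7.31 and 4.83 FPKM in m/m 1 to 5. Every db/db vehicle library lay far above every m/m library, and the ratio of the group means was 28.0. limma put the difference at 4.59 on the log2(FPKM + 1) scale (95% interval 4.16 to 5.01, adjusted p 4.27e-09). It rested on 3324 to 4330 reads in each db/db vehicle library and on 86 to 203 reads in each m/m library, and stayed between 4.46 and 4.72 when any 1 library was left out. The gene was the eighth of the 10 in m/m by mean FPKM, and in db/db vehicle it stood at 135 ± 13.8 FPKM (SD, n = 3), level with Kl at 135 ± 23.2.

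The 300 bases around the annotated start of Gc are shown because Gc had the widest genotype difference of the members. The stretch lies at chr5:89457849-89458148 on the minus strand (RefSeq, GRCm38.p6), from 250 bases before to 50 bases after the start. Capitals mark a match to the core of the HNF1 motif, which is GTTAAT, any 1 base and ATTAA. Its first base lies at −52, where the start counts as 1 and no base counts as 0. HNF1 factors are transcription factors of liver, kidney and gut.
Gc: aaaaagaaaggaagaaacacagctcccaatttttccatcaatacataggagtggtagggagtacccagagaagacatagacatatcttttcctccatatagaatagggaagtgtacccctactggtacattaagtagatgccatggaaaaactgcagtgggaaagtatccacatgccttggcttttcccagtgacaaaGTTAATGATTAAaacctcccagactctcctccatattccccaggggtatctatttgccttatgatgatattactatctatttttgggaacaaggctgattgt
Both strands were searched. Of 32851 promoters of the same length, 20 (0.0609%) held this core. The shorter HNF1 hexamer GTTAAT, which is the first part of the core, was present in 7.10% of them. Promoter sequences were at hand for 7 of the 10 genes, and among those the core occurred in Gc and the hexamer in Gc and Slc34a1. A match is a string of letters and not a measured binding site.

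Since Gc is known mainly as a liver gene, hepatocyte markers were read beside it. Of 13 tested hepatocyte markers 7 rose and 0 fell in db/db vehicle against m/m (limma; 53.8% higher, against 29.5% of all genes; 9 higher and 0 lower at an unadjusted p under 0.05), with a median difference of 0.79. The fibrinogen chain gene Fgg averaged 26.3 ± 11.4 FPKM in db/db vehicle and 3.87 ± 1.04 in m/m, a log2 difference of 2.42. Apoc3, an apolipoprotein gene, averaged 33.9 ± 16.5 and 8.70 ± 1.47 FPKM in the same order, a difference of 1.76, and Apob and Serpina1a had differences of 0.98 and 0.79. Alb, the albumin gene and a defining hepatocyte transcript, ranged from 1.22 to 7.94 FPKM in db/db vehicle and from 2.12 to 3.64 FPKM in m/m (log2 difference 0.39, adjusted p 0.370). Without db/db vehicle 1 the Alb difference was 0.98 with an adjusted p of 0.00192, and without db/db vehicle 2 it was −0.03. Ahsg, Tat and Serpina3k were at 0 in all m/m libraries and reached at most 0.170, 0.0391 and 0.0408 FPKM in db/db vehicle. Summed over the 17 hepatocyte markers in the table, FPKM was 215 to 264 in db/db vehicle and 101 to 225 in m/m, with overlapping ranges. Without db/db vehicle 1 or 3, 5 of the 13 rose. Under median-of-ratios scaling 5 rose and 0 fell, where 1544 of all 12869 tested genes rose and 2243 fell. The part of hepatocyte RNA in the Gc difference was not tested.

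The receptors that take up the filtered Gc protein moved the other way. Lrp2, which encodes megalin, averaged 215 ± 24.3 FPKM in db/db vehicle and 359 ± 21.2 FPKM in m/m, a log2 difference of −0.74. Its partner cubilin, Cubn, averaged 79.1 ± 6.96 and 106 ± 9.32 FPKM in db/db vehicle and m/m, a difference of −0.41. Lrpap1, the chaperone of megalin in the secretory pathway, fell by 0.61. In the wider list of vitamin D pathway partners, 3 of 20 tested genes rose and 7 fell (35.0% lower, against 8.31% of all genes), and the list median was −0.05. The parathyroid hormone receptor Pth1r also fell, by 0.44, and the vitamin D receptor coactivator Snw1 rose by 0.32 but was not called under median-of-ratios scaling (0.12, adjusted p 0.256). Under that scaling 0 genes of the list rose and 10 fell, where 1544 of all 12869 tested genes rose and 2243 fell. Proximal tubule markers moved as well: 4 of 16 rose and 7 fell (25.0% and 43.8%, against 29.5% and 8.31% of all genes). Among those that fell were Acsm2 (−1.35), Ggt1 (−1.05) and Slc27a2 (−0.84). Under median-of-ratios scaling 2 of the 16 rose and 9 fell. As deposited, their median was −0.22, and their summed FPKM was 12153 to 14240 in db/db vehicle and 11770.4 to 12589 in m/m. Their part in these differences was not tested.

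Cyp27b1, which makes calcitriol, rose in db/db vehicle. It was at 6.62, 11.7 and 9.10 FPKM in db/db vehicle 1, 2 and 3, against 2.42, 3.94, 1.17, 3.95 and 1.24 FPKM in m/m 1 to 5. All 3 db/db vehicle libraries exceeded all 5 m/m libraries, and within m/m the libraries 3 and 5 were lowest and the libraries 2 and 4 highest. limma gave a log2 difference of 1.58 (95% interval 0.99 to 2.17, adjusted p 6.88e-04) and the ratio of means 3.60. It ranged from 1.40 to 1.77 when any 1 library was left out. The promoter of Cyp27b1 is shown because the gene is the second of the members whose call held under every alternative. It lies at chr10:127047996-127048295 on the plus strand (RefSeq, GRCm38.p6), and capitals mark a CCAAT box on the reverse strand, at −86, a motif held by 37.4% of all promoters.
Cyp27b1: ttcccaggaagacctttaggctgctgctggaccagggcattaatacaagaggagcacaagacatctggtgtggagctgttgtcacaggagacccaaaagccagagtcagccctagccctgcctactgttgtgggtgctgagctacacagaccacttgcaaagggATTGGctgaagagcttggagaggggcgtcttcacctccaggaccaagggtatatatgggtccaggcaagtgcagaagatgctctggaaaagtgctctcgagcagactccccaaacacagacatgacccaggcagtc
None of the HNF1 hexamer, the TATA box TATAAA, the GC box GGGCGG or the nuclear receptor hexamer AGGTCA was found in this window.

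Cyp24a1, which inactivates calcifediol and calcitriol, varied more than any other tested member among the db/db vehicle libraries. It was at 65.0, 323 and 61.4 FPKM in db/db vehicle 1, 2 and 3, against 122, 43.3, 92.3, 61.5 and 75.2 FPKM in m/m 1 to 5. Only db/db vehicle 2 stood above the m/m range, and the other db/db vehicle libraries lay inside it. The log2 difference was 0.55 (95% interval −0.68 to 1.78, adjusted p 0.474), and it was −0.23 without db/db vehicle 2. The exons of Cyp24a1 overlap those of Pfdn4 on the opposite strand in the GRCm38 annotation, and the strand setting of the counting is not given in the sources used here, so its level is uncertain.

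Set against each other within a library, the catabolic and the forming hydroxylase gave FPKM ratios of Cyp24a1 to Cyp27b1 of 9.81, 27.6 and 6.74 in db/db vehicle 1, 2 and 3, against 50.4, 10.99, 78.8, 15.6 and 60.5 in m/m 1 to 5. The ranges overlapped: db/db vehicle 2 lay above m/m 2 and m/m 4, the m/m libraries with the most Cyp27b1. Cyp2r1, the main calcifediol-forming hydroxylase of the liver, was barely detected, with 2 to 5 reads in the db/db vehicle libraries and 0 to 15 in the m/m libraries. Its level was 0.0754 to 0.201 FPKM in db/db vehicle and 0 to 0.555 FPKM in m/m, so no difference was detectable at this depth (−0.14 in the fit without a minimum level, adjusted p 0.550). The mitochondrial hydroxylase Cyp27a1, which can also form calcifediol, was one of the called pathway partners, at 26.4 to 34.8 FPKM in db/db vehicle and 19.0 to 24.7 FPKM in m/m (log2 difference 0.39, adjusted p 0.0127); it was picked after its values were seen.

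**Figure D2:**
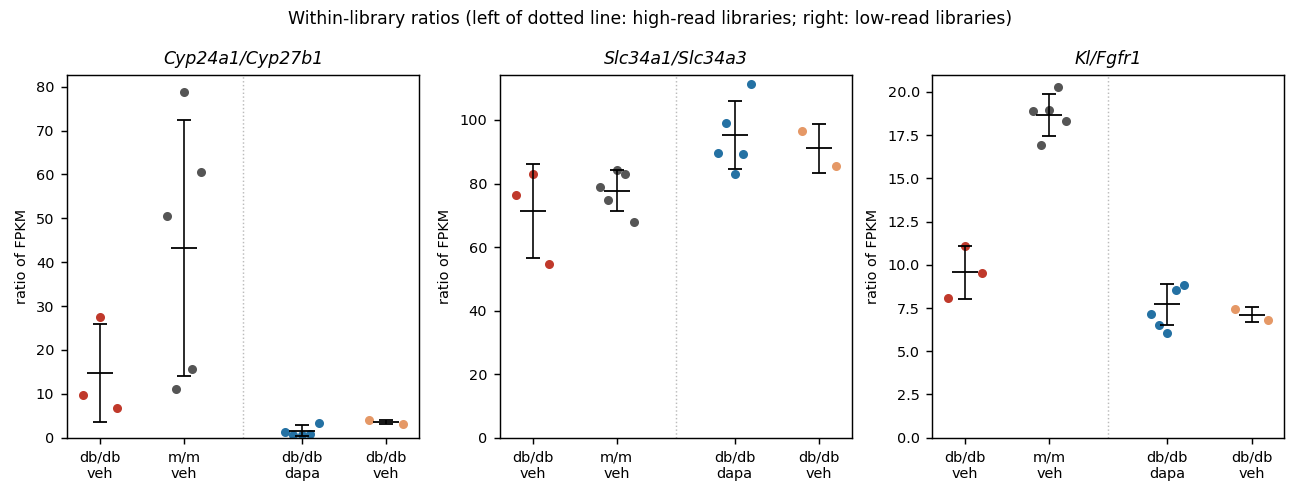
FPKM ratios of 3 gene pairs in each library, with the mean and SD of each group as black bars, high-read libraries left of the dotted line and low-read libraries right of it. The Kl to Fgfr1 ratio separates db/db vehicle from m/m, while the Cyp24a1 to Cyp27b1 and Slc34a1 to Slc34a3 ratios overlap.

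Vdr, the nuclear receptor for calcitriol, did not differ detectably between genotypes. It was at 72.2, 90.7 and 112 FPKM in db/db vehicle 1, 2 and 3, against 92.6, 81.0, 123, 82.3 and 98.7 FPKM in m/m 1 to 5. The groups overlapped over most of their range. On the log2 scale the difference was −0.06 (95% interval −0.36 to 0.23, adjusted p 0.745), an interval that leaves room for changes of up to 0.36 downward.

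Genes of renal calcium transport, several of them known calcitriol targets, were mostly higher in db/db vehicle: 11 of 16 tested rose and 0 fell (limma; 68.8% higher, against 29.5% of all genes; 13 higher and 1 lower at an unadjusted p under 0.05), with a median of 0.47. Calb1, the calcium buffer calbindin of the distal tubule, averaged 217 ± 30.6 FPKM in db/db vehicle and 86.8 ± 11.6 FPKM in m/m (log2 difference 1.32). The apical calcium channel Trpv5 averaged 8.22 ± 1.13 and 3.56 ± 0.464 FPKM in db/db vehicle and m/m (1.01). S100g, the small calbindin, averaged 626 ± 133 and 351 ± 56.5 FPKM (0.83), and the calcium pump gene Atp2b4 6.64 ± 0.752 and 2.75 ± 0.306 FPKM (1.03), again in db/db vehicle and m/m. Pvalb, a calcium buffer of the early distal convoluted tubule, and Klk1, the kallikrein of the connecting tubule, rose by 0.57 and 0.67. Under median-of-ratios scaling 8 of the list rose and 1 fell, where 1544 of all 12869 tested genes rose and 2243 fell. Without db/db vehicle 1, 8 rose and 1 fell, and without m/m 4, 9 rose and 1 fell. With any other library left out, 9 to 11 rose and 0 fell. Markers of the distal convoluted tubule moved as well: 5 of 9 rose and 1 fell (55.6% and 11.1%, against 29.5% and 8.31% of all genes). Among them were the thiazide-sensitive cotransporter Slc12a3 (1.02), the magnesium channel Trpm6 (0.81) and the kinase Wnk4 (0.59) upward and Egf (−0.53) downward. Under median-of-ratios scaling 4 of the 9 rose and 2 fell. That list holds Umod, which is mainly a gene of the thick ascending limb and did not pass the test (−0.22, adjusted p 0.217). The summed FPKM of the list was 1367 to 1552 in db/db vehicle and 1403 to 1539 in m/m with Umod, and 752 to 858 in db/db vehicle and 668 to 757 in m/m without it. Its part in the calcium genes was not tested.

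Slc34a1, the main phosphate carrier of the proximal tubule, was by far the most abundant member on the FPKM scale. It was at 1666, 2449.9 and 1781 FPKM in db/db vehicle 1, 2 and 3, against 2433, 2678, 2294, 2766 and 2388 FPKM in m/m 1 to 5. The groups overlapped, because db/db vehicle 2 lay inside the m/m range while db/db vehicle 1 and 3 lay below it. The log2 difference was −0.37 (95% interval −0.60 to −0.14, adjusted p 0.0156). The call was lost without db/db vehicle 1 (−0.26, adjusted p 0.0893) and without db/db vehicle 3 (−0.31, adjusted p 0.0798). Its exons overlap those of Pfn3 on the opposite strand in GRCm38. The Slc34a1 promoter is shown for comparison with that of Gc. It lies at chr13:55399398-55399697 on the plus strand (RefSeq, GRCm38.p6), and capitals mark HNF1 hexamers, on the reverse strand at −89 and on the forward strand at −61.
Slc34a1: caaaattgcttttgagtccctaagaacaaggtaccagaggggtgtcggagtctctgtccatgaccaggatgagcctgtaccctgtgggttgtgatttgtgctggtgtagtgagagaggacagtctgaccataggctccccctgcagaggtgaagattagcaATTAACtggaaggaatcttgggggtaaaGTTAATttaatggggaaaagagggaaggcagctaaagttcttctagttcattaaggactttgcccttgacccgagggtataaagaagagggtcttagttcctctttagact
The full HNF1 core was not among the letters of this window.

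The second sodium-coupled carrier of the brush border, Slc34a3, was at 21.8, 29.5 and 32.6 FPKM in db/db vehicle 1, 2 and 3, against 30.9, 35.8, 27.2, 33.3 and 35.1 FPKM in m/m 1 to 5. Only db/db vehicle 1 lay below all m/m libraries. Its log2 difference was −0.22 (95% interval −0.49 to 0.05, adjusted p 0.186), and under median-of-ratios scaling it was called (−0.42, adjusted p 0.0356). Slc34a1 exceeded Slc34a3 by a ratio of 76.4, 83.1 and 54.6 in db/db vehicle 1, 2 and 3, and by 68.0 to 84.3 in m/m, with overlapping ranges.

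Slc20a2, a type III phosphate carrier found in many tissues, was at 26.3, 24.2 and 19.1 FPKM in db/db vehicle 1, 2 and 3, against 19.5, 17.8, 20.1, 16.3 and 18.7 FPKM in m/m 1 to 5. The first 2 db/db vehicle libraries lay above the m/m range and the last one inside it. limma gave a log2 difference of 0.31 (95% interval 0.08 to 0.53, adjusted p 0.0332), 0.15 above the median of all genes. The call rested on single libraries: adjusted p was 0.169 without db/db vehicle 1, 0.108 without db/db vehicle 2, and 0.0627, 0.0713 and 0.0521 without m/m 2, 4 and 5. Median-of-ratios scaling gave 0.11 (adjusted p 0.450), and the exons of Slc20a2 overlap those of Smim19 on the opposite strand in GRCm38.

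Among 25 tested genes of phosphate transport and its regulators, 10 rose and 7 fell in db/db vehicle (40.0% and 28.0%, against 29.5% and 8.31% of all genes). Under median-of-ratios scaling 7 rose and 11 fell, where 1544 of all 12869 tested genes rose and 2243 fell. Slc17a3, an organic anion carrier first described as a phosphate transporter, averaged 52.5 ± 9.86 FPKM in db/db vehicle and 149 ± 19.3 FPKM in m/m (log2 difference −1.50). Slc9a3r1 and Pdzk1, which encode brush border scaffolds of Slc34 carriers, fell by 0.45 and 0.43, and the related scaffold gene Slc9a3r2 rose by 0.58. With the library sets pooled, neither Slc9a3r1 (−0.26, adjusted p 0.111) nor Pdzk1 (−0.12, adjusted p 0.587) was called. Ip6k2, an inositol hexakisphosphate kinase, rose by 0.72. Stc1, which encodes the calcium and phosphate regulating hormone stanniocalcin, averaged 6.29 ± 1.10 FPKM in db/db vehicle and 1.61 ± 0.513 FPKM in m/m (1.49).

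Kl, which encodes Klotho, fell in db/db vehicle. It was at 111, 157 and 136 FPKM in db/db vehicle 1, 2 and 3, against 218, 209.7, 211, 219 and 211 FPKM in m/m 1 to 5. The m/m libraries were tightly grouped, at 214 ± 4.52 FPKM (SD, n = 5), and every db/db vehicle library lay below them. In log2 units Kl differed by −0.68 (95% interval −0.89 to −0.47, adjusted p 1.72e-04), or a ratio of means of 0.629. Together with Gc and Cyp27b1, it kept its call under all 27 alternatives, though those that only changed low-read libraries could not move its estimate. Its promoter is shown because Kl is the member with the steadiest decrease. It lies at chr5:150952357-150952656 on the plus strand (RefSeq, GRCm38.p6), and capitals mark GC boxes, GGGCGG, on the reverse strand at −43 and on the forward strand at −17 and 18. This motif was held by 35.7% of all promoters.
Kl: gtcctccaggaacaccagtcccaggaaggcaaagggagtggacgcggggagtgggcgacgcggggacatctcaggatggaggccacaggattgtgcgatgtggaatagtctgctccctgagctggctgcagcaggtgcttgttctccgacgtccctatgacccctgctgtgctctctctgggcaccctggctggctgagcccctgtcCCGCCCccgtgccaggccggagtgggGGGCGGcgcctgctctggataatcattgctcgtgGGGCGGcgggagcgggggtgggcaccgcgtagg
Neither the HNF1 hexamer nor the nuclear receptor hexamer was found in this window.

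Fgfr1, the receptor that forms the FGF23 receptor with Klotho, was at 13.8, 14.2 and 14.2 FPKM in db/db vehicle 1, 2 and 3, against 11.6, 12.4, 11.2, 10.8 and 11.5 FPKM in m/m 1 to 5. All db/db vehicle libraries stood above all m/m libraries by a narrow margin. The log2 difference was 0.27 (95% interval 0.14 to 0.40, adjusted p 0.00442), 0.11 above the median of all genes, and under median-of-ratios scaling it was 0.08 (adjusted p 0.506). Its exons overlap those of the predicted gene Gm16159 on the opposite strand in GRCm38. The FPKM ratio of Kl to Fgfr1 was 8.06, 11.1 and 9.55 in db/db vehicle 1, 2 and 3, against 18.9, 17.0, 19.0, 20.3 and 18.3 in m/m 1 to 5, with no overlap. A ratio within a library does not depend on its scaling.

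Of 23 tested genes of FGF23 and Klotho signalling, 8 rose and 1 fell (34.8% and 4.35%, against 29.5% and 8.31% of all genes). Under median-of-ratios scaling 3 rose and 3 fell, where 1544 of all 12869 tested genes rose and 2243 fell. Without db/db vehicle 1 or 3, 5 rose. Fgf23 itself was listed at 0 in all high-read libraries, but not in all low-read libraries. Fgfr4, the receptor that carries part of the renal FGF23 response, averaged 16.0 ± 2.58 FPKM in db/db vehicle and 20.8 ± 0.461 FPKM in m/m (−0.37). Fgfr2 averaged 4.27 ± 0.532 and 2.74 ± 0.177 FPKM in the same order (0.49), and it was not called after quantile normalization (0.23, adjusted p 0.0703). Fgfr3 did not pass the test (−0.04, adjusted p 0.751). Among the ETS family transcription factors in the list, Etv4 rose by 0.86 and Ets1 by 0.58, and Etv5 did not pass the test (−0.06, adjusted p 0.699).

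**Figure D3:**
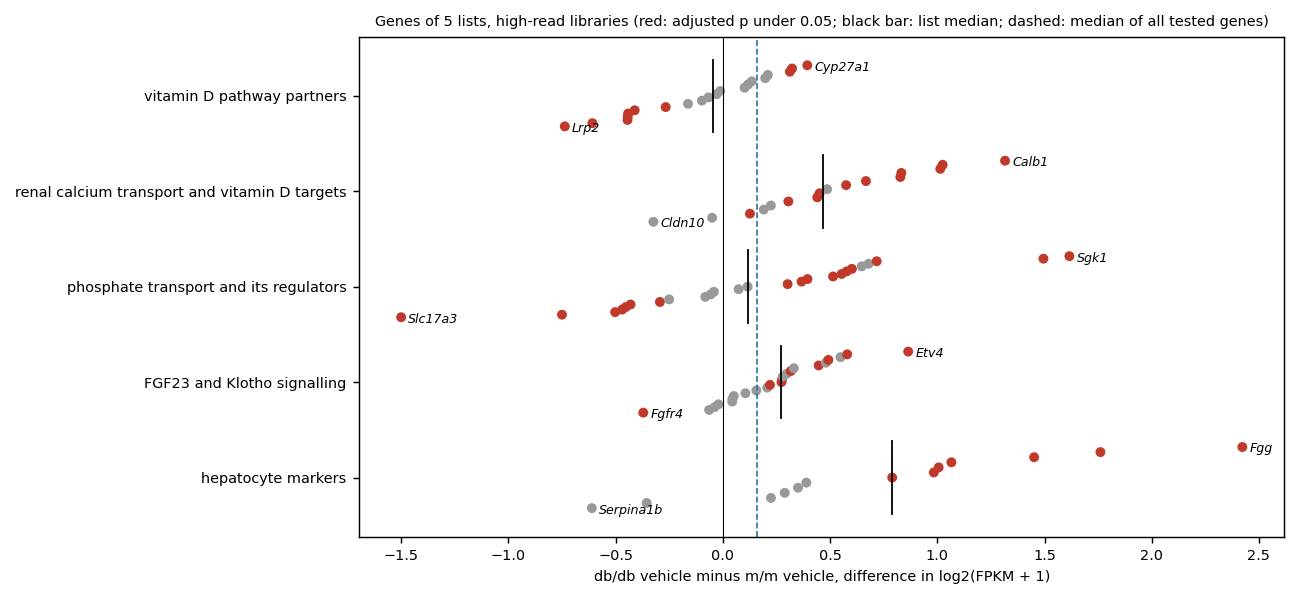
Each point is 1 tested gene of a list, placed by its log2(FPKM + 1) difference of db/db vehicle minus m/m in the high-read libraries. Red points passed an adjusted p of 0.05, black bars are list medians and the dashed line is the median of all tested genes, 0.16; calcium transport and hepatocyte lists lie mostly to its right, and vitamin D partners lie on both sides.

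Vascular and fibroblast markers and leukocyte markers were read as signs of other cells. Of 12 vascular and fibroblast markers 6 rose and 0 fell (limma; 7 and 0 at an unadjusted p under 0.05), with a median of 0.71 and summed FPKM of 161 to 255 in db/db vehicle and 127 to 149 in m/m. Under median-of-ratios scaling 4 rose and 2 fell, where 1544 of all 12869 tested genes rose and 2243 fell. After quantile normalization 3 rose and 1 fell, where 1586 of all genes rose and 1745 fell. The called genes with the smallest adjusted p were Tagln, Acta2, Pdgfra and Cdh5, with differences of 0.74, 0.89, 0.81 and 0.35. Cdh5 was not called under median-of-ratios scaling (adjusted p 0.215), after quantile normalization (0.141) or without db/db vehicle 3 (0.0586), and Pdgfra was not called after quantile normalization (0.0919). Without db/db vehicle 1 or 3, 4 of the 12 rose. Of 7 leukocyte markers 2 rose (28.6%, against 29.5% of all genes), so this count carries little by itself. These were the neutrophil genes S100a8 (2.67) and S100a9 (2.82). By limma, 0 leukocyte markers rose without db/db vehicle 1 or 3. With all libraries, 3 were higher at an unadjusted p under 0.05. Summed leukocyte FPKM was 19.3 to 122 in db/db vehicle and 22.5 to 35.0 in m/m. The part of these cells in the member differences was not tested.

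Dapagliflozin, which blocks sodium-coupled glucose uptake in the tubule segment that also reclaims phosphate, was compared with vehicle in db/db kidneys of the low-read set. No member passed the test: 0 of 9 tested were called by limma with Benjamini-Hochberg adjustment and 0 had an unadjusted p under 0.05, beside 0.28% of all genes called (36 of 12869). With 4 samples against 2 and few reads, the intervals are wide. In each of the 9 wider lists 0 genes were called as well, and of their 141 tested entries 6 were higher and 7 lower at an unadjusted p under 0.05.

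Gc was at 94.1, 100.5, 97.4, 74.7 and 66.9 FPKM in dapagliflozin 1 to 5, against 80.2 and 99.9 FPKM in db/db vehicle 4 and 5. Treated libraries lay above, between and below the vehicle libraries. On the log2 scale the difference was −0.11 (95% interval −0.62 to 0.39, adjusted p 0.897). Summed hepatocyte markers were at 229 to 292 FPKM in dapagliflozin and at 287 and 290.5 FPKM in db/db vehicle 4 and 5, and Ahsg, Tat and Serpina3k were at 0 in all of these libraries.

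Cyp24a1 had the widest estimate. It was at 27.1, 15.7, 14.9, 16.0 and 69.2 FPKM in dapagliflozin 1 to 5, against 86.2 and 45.9 FPKM in db/db vehicle 4 and 5. Dapagliflozin 1 to 4 lay below both vehicle libraries and dapagliflozin 5 between them. Its log2 difference was −1.23 (95% interval −2.69 to 0.22, adjusted p 0.482), ranging from −1.69 to −0.79 with any 1 library left out. Cyp27b1 was at 19.9, 22.1, 23.7, 19.8 and 20.3 FPKM in dapagliflozin 1 to 5, against 21.8 and 14.4 FPKM in db/db vehicle 4 and 5 (0.21, 95% interval −0.49 to 0.91). All treated libraries lay above db/db vehicle 5, and db/db vehicle 4 lay among them. The ratio of Cyp24a1 to Cyp27b1 was 1.36, 0.711, 0.628, 0.808 and 3.41 in dapagliflozin 1 to 5, against 3.95 and 3.18 in db/db vehicle 4 and 5, so dapagliflozin 5 alone reached the vehicle level. Cyp2r1 had 0 or 1 read in each of the low-read libraries.

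Vdr and the phosphate carriers were nearly level. Vdr ranged from 57.2 to 61.5 FPKM with a median of 58.6 in dapagliflozin, against 57.5 and 60.9 FPKM in db/db vehicle 4 and 5 (0.00, 95% interval −0.35 to 0.35). Slc34a1 was at 3090.0, 2929, 2879.7, 3147 and 3051 FPKM in dapagliflozin 1 to 5, against 2922 and 2964 FPKM in db/db vehicle 4 and 5 (0.05, 95% interval −0.22 to 0.32). Slc34a3 was at 34.4, 29.6, 34.7, 35.3 and 27.4 FPKM, against 30.3 and 34.6 FPKM in vehicle (−0.01, 95% interval −0.33 to 0.31). For each of these genes the ranges overlapped. Slc20a2 was at 18.1, 19.1, 19.98, 19.2 and 21.9 FPKM in dapagliflozin 1 to 5, against 24.4 and 20.4 FPKM in db/db vehicle 4 and 5, with dapagliflozin 5 alone between the vehicle libraries and the others below them (−0.18, 95% interval −0.44 to 0.09).

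Klotho did not differ detectably with the drug. Kl was at 71.4, 64.4, 69.4, 85.0 and 80.7 FPKM in dapagliflozin 1 to 5, against 72.1 and 70.9 FPKM in db/db vehicle 4 and 5. Treated libraries lay on both sides of the vehicle libraries, and the log2 difference was 0.08 (95% interval −0.17 to 0.33, adjusted p 0.839). Fgfr1 was at 9.996, 9.86, 11.4, 9.92 and 9.14 FPKM in dapagliflozin 1 to 5, against 9.70 and 10.4 FPKM in db/db vehicle 4 and 5 (−0.02, 95% interval −0.18 to 0.14). No m/m library belongs to the low-read set, so a return to m/m levels could not be tested.

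**Figure D4:**
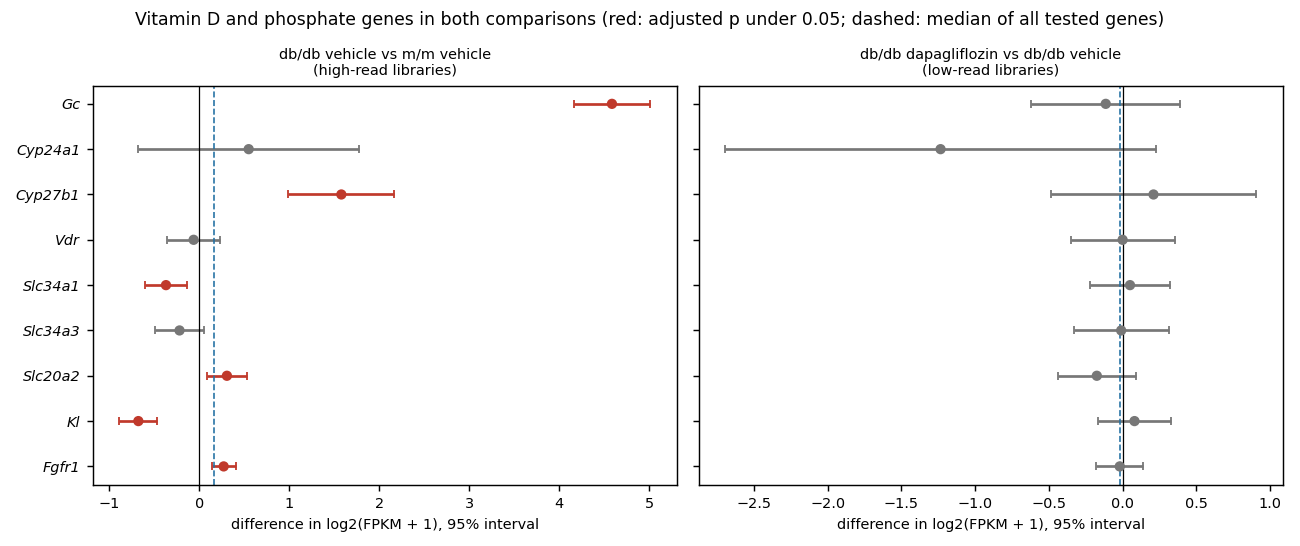
Differences in log2(FPKM + 1) of the 9 tested genes with 95% intervals of the fit, with db/db vehicle minus m/m (high-read set) on the left and dapagliflozin minus vehicle (low-read set) on the right. Red marks an adjusted p under 0.05 and the dashed line the median of all tested genes. On the left 6 genes are red, beside 37.8% of all tested genes called, and on the right 0, beside 0.28%.

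Several members differed between the library sets, as did most genes, which limits any reading across sets. Within db/db vehicle alone, 5 of 9 tested members differed between low-read and high-read libraries (55.6%), beside 61.1% of all genes (18.8% higher and 42.3% lower). The number of members called therefore carries little by itself. Cyp27b1 was higher in the low-read libraries 4 and 5, at 21.8 and 14.4 FPKM, than in the high-read libraries 1 to 3, at 6.62 to 11.7 FPKM (log2 difference 0.92, adjusted p 0.0315). Its call was lost without db/db vehicle 1, 3 or 4 (adjusted p 0.106, 0.0587 and 0.221), with a pseudocount of 0.1 (0.0756), with no minimum level (0.0519) and with array weights (0.140). Slc34a1 was higher as well (0.60), whereas Kl (−0.89), Vdr (−0.60) and Fgfr1 (−0.44) were lower. The Vdr call was lost without db/db vehicle 4 (adjusted p 0.0502), and Vdr and Fgfr1 were not called under median-of-ratios scaling. Gc differed by −0.59 with an adjusted p of 0.0542. It was called in a fit of only the compared libraries (0.0118) and without dapagliflozin 5, m/m 1 or m/m 4 (0.0476, 0.0271 and 0.0236). Slc34a3 was called under median-of-ratios scaling (0.51, adjusted p 0.0237). A technical difference and a difference between the mice of the sets cannot be told apart.

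The order of levels, read as mean FPKM, differed between genotypes mainly through Gc. In db/db vehicle of the high-read set it ran from Slc34a1 (1966 FPKM) through Cyp24a1 (149.9), Gc (135), Kl (135) and Vdr (91.8) to Slc34a3 (28.0), Slc20a2 (23.2), Fgfr1 (14.05), Cyp27b1 (9.15) and Cyp2r1 (0.132). The place of Cyp24a1 rests on db/db vehicle 2, since its 65.0 and 61.4 FPKM in the other db/db vehicle libraries lay below Gc, Kl and Vdr. The ranges of neighbours from Cyp24a1 down to Vdr overlapped, as did those of Slc34a3 and Slc20a2. In m/m the order ran from Slc34a1 (2512 FPKM) through Kl (214), Vdr (95.5), Cyp24a1 (78.8), Slc34a3 (32.5), Slc20a2 (18.5) and Fgfr1 (11.5) to Gc (4.84), Cyp27b1 (2.54) and Cyp2r1 (0.262). There the ranges of Vdr and Cyp24a1 overlapped, and so did those of Gc and Cyp27b1.

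Co-variation within groups was read from each sample's deviation from its group mean, over 14 samples of 1 tissue and 1 protocol but 2 library sets, as a description with no test. Across the 36 pairs of tested members, 5 had a Pearson correlation of at least 0.5 and 3 of at most −0.5. Slc34a1 went with Kl (0.718) and with Cyp27b1 (0.662), and Slc34a3 went against Slc20a2 (−0.817). By the same measure, the genes most like Slc34a1 were Aldh4a1 (0.959), Cryz (0.920) and Auh (0.913). Those most like Gc were Wdr35 (0.866), Prxl2c (0.856) and Snx25 (0.845), and those most like Cyp24a1 were Ddx3y (0.910), Setmar (0.885) and Mrnip (0.884). These values describe 14 samples and were picked as the highest of all tested genes.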

How the data were processed

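Total kidney RNA was made into TruSeq stranded mRNA libraries, per the labels' protocols. Levels were read from the authors' deposited table of FPKM. The tools named in the submitters' processing notes are Trimmomatic, HISAT2, HTSeq and Cufflinks, with the build GRCm39, and no version or setting is given in the sources used here. FPKM values were whole multiples of 1 read (100% at a tolerance of 1e-08), which gave the read numbers used for depth, for reads per gene and for comparing libraries with sampling noise. Depth differed between library sets by a ratio of 8.20.

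Differences were tested with limma 3.58.1 (R 4.3.3) and its intensity trend, 2-sided, on log2(FPKM + 1), which understates changes of low genes. Genes averaging 0.5 FPKM or more, 12869 in number, entered 1 fit of 14 samples, with group and library set as terms. Benjamini-Hochberg adjustment ran over all tested genes, and an adjusted p under 0.05 was called. The steps were tested on simulated data, where the recovery of read numbers was exact for 17139 of 17522 genes. Members, gene lists and tests were chosen with earlier results of these data known. Genes named are the members, 12 context genes by name, the called genes of each list with the smallest adjusted p (at most 4), and the 3 genes most like Gc, Cyp24a1 and Slc34a1. A gene that this rule also names is not reported here. Cyp27a1, Etv5, Umod, Fgf23, Ahsg, Tat and Serpina3k are named outside the rule, after their values were seen. Lists are vitamin D partners, calcium transport, phosphate transport, FGF23 and Klotho signalling, and markers of hepatocytes, proximal tubule, distal convoluted tubule, vessels and fibroblasts, and leukocytes. Alternatives were other pseudocounts, minimum levels and scalings, array weights, a replicate block, only the compared libraries, pooled sets, 15 separate libraries and each library left out. Averaging dapagliflozin 1, 2 and 3 was added after the data were seen. Exon overlaps come from the GRCm38 annotation by symbol, a build other than the authors'.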

Additional observations from a re-analysis of the deposited data

Results flagged for a closer look

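The FPKM ratio of Slc34a1 to Slc34a3 was 111 in dapagliflozin 5, above the 83.1 to 99.1 of the other dapagliflozin libraries. Dapagliflozin 5 had the lowest Slc34a3 of its group, 27.4 FPKM, in a group with 106 to 150 reads of that gene per library, and a Slc34a1 level in the middle of it. Dapagliflozin 2 and 3, at 99.1 and 83.1, counted as 1 value here, so that the lowest of the 4 values was 89.2. The library was flagged only with this averaging. It was the 1 library that stood apart among 26 sets of values examined, and chance gives about 1 in 20. Those sets were all from m/m and dapagliflozin. The db/db vehicle groups, with 3 and 2 samples, were too small to be examined, so Cyp24a1 at 323 FPKM in db/db vehicle 2 could not be flagged. The cause was not tested.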

How the results depend on the processing

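The calls of Gc, Cyp27b1 and Kl between db/db vehicle and m/m held under all 27 alternatives. Some of these only left out, averaged or separated low-read libraries. There the estimate between db/db vehicle 1 to 3 and m/m could not change, and only the shared spread could move, so they say little about the calls. Of the 9 tested members, 3 were called after quantile normalization, against 6, and 4 to 6 with any 1 library left out. Quantile normalization called 1586 of all 12869 tested genes higher and 1745 lower, so these member counts carry little by themselves. Pooling the library sets gave 3170 called genes in place of 4869, and leaving out 1 library gave 3370 to 5222. Slc34a1 was not called with no minimum level, after quantile normalization or with pooled sets, nor Fgfr1 after quantile normalization or with pooled sets. Pooling also ended the calls of S100g (0.122), Klk1 (0.133), Apob (0.244) and Serpina1a (0.46), with adjusted p of limma in brackets. The calls of Ets1 (0.0935), Pdgfra (0.101), S100a8 (0.181) and S100a9 (0.1105) ended in the same way. Leaving out 1 library moved Cyp24a1 between −0.23 and 0.96, Vdr between −0.22 and 0.10, Fgfr3 between −0.0827 and 0.0276 and Alb between −0.025 and 0.98, so each changed sign; array weights gave 0.0321 for Vdr. Without db/db vehicle 1 or 3, S100a8 (adjusted p 0.0528 and 0.0572) and S100a9 (0.0592 and 0.0616) were not called.

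For dapagliflozin against vehicle, 0 members were called in any alternative. The count over all genes was 222 with no minimum level, 1 with array weights, 1 with the replicate block, 1 with only the compared libraries, 850 with pooled sets, 69 with dapagliflozin 1, 2 and 3 averaged, and 1 (without db/db vehicle 4) to 126 (without dapagliflozin 1) with 1 library left out, against 36. Signs close to 0 changed: Vdr was 0.0202 with median-of-ratios scaling, 0.0256 with the replicate block and 0.0078 with dapagliflozin 1, 2 and 3 averaged. Slc34a1 was −0.06 after quantile normalization. Slc34a3 was 0.0103 with median-of-ratios scaling, 0.0015 after quantile normalization, 0.0176 with array weights, 0.005 with the replicate block and 0.12 with pooled sets. Kl was −0.45 with pooled sets. Leaving out 1 library gave −0.27 to 0.0427 for Gc, −0.0728 to 0.49 for Cyp27b1, −0.0415 to 0.0409 for Vdr, −0.10 to 0.0837 for Slc34a3 and −0.0673 to 0.0278 for Fgfr1.

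Between low-read and high-read db/db vehicle libraries, 3 to 6 members were called with 1 library left out, beside 6487 to 8087 of all 12869 tested genes. The lowest count of members was without db/db vehicle 4. Slc20a2 was 0.24 with median-of-ratios scaling, 0.0174 with array weights and −0.17 to 0.0809 with 1 library left out. The causes were not tested. Deviations of same-numbered libraries correlated at 0.381, 0.0538 and −0.00823 for db/db vehicle and m/m 1 to 3. For dapagliflozin and db/db vehicle 4 and 5 the values were −0.0535 and −0.724. Deviations of db/db vehicle 4 and 5 from their shared mean are mirror images, and differently numbered libraries were not compared. Whether replicate numbers pair the samples was therefore not settled. With the replicate block, Slc20a2 kept its difference of 0.31 with an adjusted p of 0.0957. The 1.60 to 2.29 M reads of the low-read libraries and the 2 vehicle samples both limit the drug comparison.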
